A study of Arabidopsis thaliana with 236 samples.

Results

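AT5G62720 and AT3G47980 are the 2 Arabidopsis loci of the integral membrane HPP family examined here, out of 27143 loci measured. They were chosen by locus, after AT5G62720 had shown the largest nitrogen response of any locus in pericycle cells. AT5G62720 is represented by 2 rows of the deposited table, which were averaged, and AT3G47980 by 1 row. The reference annotation used for names gives neither locus a gene symbol, so both are called by their locus codes.

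Roots take up nitrate, reduce it in the cytosol to nitrite with nitrate reductase, and pass the nitrite into plastids. There nitrite reductase turns it into ammonium, using electrons that in roots come from the oxidative pentose phosphate pathway through ferredoxin. Nitrite is toxic when it builds up in the cytosol. HPP family proteins of the plastid envelope have been linked to nitrite transport in Arabidopsis, which places them between both reductases.

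The study followed Arabidopsis Col-0 seedlings raised for 9 days on 0.1 mM KNO3 under 16 h light and 8 h dark, although a source label calls the roots 12 days old. At dawn they were moved to fresh 0.1 mM KNO3 (standard), to 5 mM KNO3 (nitrogen), or to a Sinorhizobium meliloti culture of OD600 0.8 that also held 0.1 mM KNO3 (rhizobium). Cells of GFP-marked cortex or pericycle were sorted from protoplasts before the transfer (0 h) and at 13 times from 1 to 48 h, and their RNA was amplified and hybridised to single-colour arrays. There were 236 arrays, 110 of cortex and 126 of pericycle, in 80 groups of 2 to 5. Every plant, the standard ones included, carried a GFP marker, had been grown at low nitrate and was transferred, and the marker lines are not named in the sources used here. The sample labels say cortex and pericycle, whereas 1 sentence of the design text pairs epidermal with cortical cells. The sample labels were followed. Whether arrays of a group stem from different plantings is not stated, and the spread that the p-values rest on may be partly technical.

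All levels below are log2 intensities, so a difference of 1 is a factor of 2. They compare a locus only with itself, since probes of different loci differ in brightness. Over the whole table values ran from 3.69 to 15.53 and array medians from 8.44 to 9.23. Differences are means of same-hour differences with their standard error, and a difference passed where limma's adjusted p over all loci was below 0.05. Arrays 2 and 3 of pericycle standard at 16 h correlated at 0.99923, the highest of 244 pairs within groups and followed by 0.974, and were counted as 1 sample, leaving 235.

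The sorted cells matched their labels only in part. Of 8 pericycle and stele markers 5 were higher and 2 lower in pericycle than in cortex on 0 h and standard arrays, while the 4 cortex markers lay between -0.58 and 0.09 and none passed. In the same comparison 8 of 10 endodermis, 6 of 8 epidermis or root hair and 3 of 3 root cap markers were also higher in pericycle, where 39.2% of all loci differed and 20.8% were higher. The mean level of the endodermis markers ran from 6.71 to 11.37 over pericycle standard arrays and from 6.29 to 8.21 over cortex standard arrays. All 4 cortex markers were higher on cortex nitrogen than on cortex standard arrays, by 0.75 to 1.92, where 20.9% of all loci were higher. On nitrogen arrays they were lower in pericycle than in cortex (-0.86 to -1.26). The part of this rise in the cortex nitrogen response of AT5G62720 was not tested. Each label therefore names a sorted fraction, and in such bulk samples fewer cells of a type and less RNA per cell cannot be told apart.

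AT5G62720 had its highest arm medians on 5 mM nitrate, in both fractions. Its 32 cortex nitrogen arrays had a lowest level of 9.04, a median of 11.47 and a highest of 13.01. The 37 cortex standard arrays ran from 5.94 to 11.78 with a median of 9.42, and the 38 cortex rhizobium arrays from 5.89 to 11.46 with a median of 7.62. In pericycle the 41 nitrogen arrays ran from 7.73 to 13.09 with a median of 11.76. The 37 pericycle standard arrays spanned 5.92 to 10.77 around a median of 7.17, and the 42 rhizobium arrays 5.72 to 12.75 around 9.07.

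Before the transfer the 3 cortex arrays read 7.16, 7.60 and 6.87, and the 5 pericycle arrays 9.63, 7.46, 10.78, 8.53 and 8.64. Ordered by mean over all arrays, AT5G62720 stood at 11.44 in pericycle nitrogen, 11.32 in cortex nitrogen, 9.06 in cortex standard, 9.04 in pericycle rhizobium, 9.01 in pericycle before treatment, 8.05 in cortex rhizobium, 7.58 in pericycle standard and 7.21 in cortex before treatment. Among neighbours in that order the gap from cortex nitrogen to cortex standard, 2.26, exceeded the pooled standard deviation of the 2 (1.36). Every other neighbouring pair lay closer together than its own spread.

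**Figure D1:**
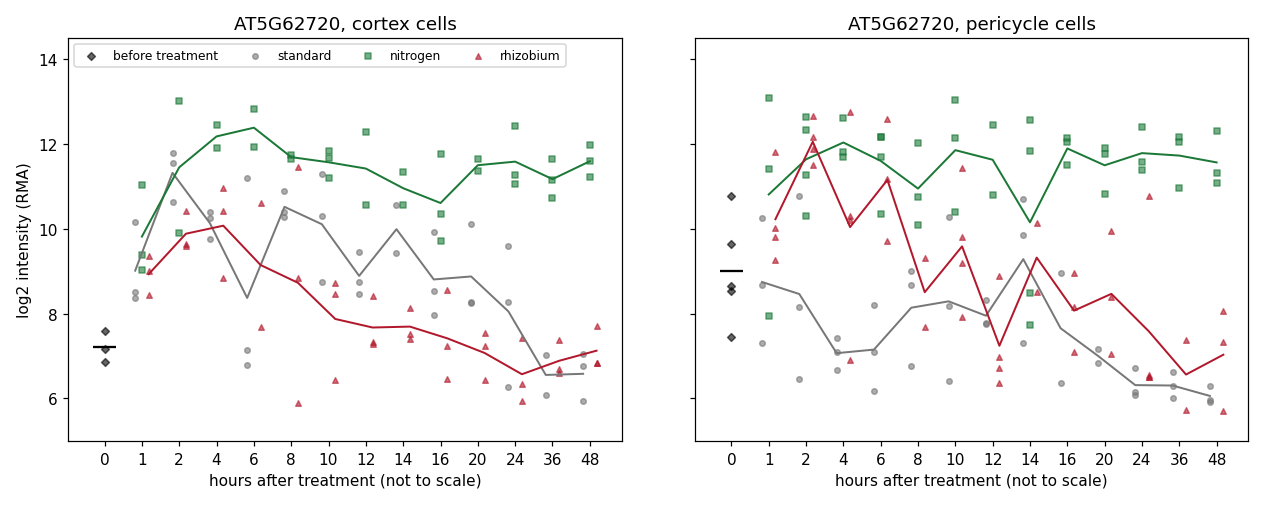
AT5G62720 level (log2 intensity) on every array against hours after treatment (ordered, not to scale) in cortex (left) and pericycle (right); points are arrays, lines join group means and the black bar is the mean before treatment. From 4 h on the nitrogen group means lie between 10.15 and 12.38, while standard and rhizobium points end between 5.7 and 8.1 at 48 h.

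In cortex, AT5G62720 was 5.14-fold higher on 5 mM nitrate than on standard (log2 difference 2.36 ± 0.30, adjusted p = 1.79e-11), the 29th highest difference of 27143 loci. In this comparison 35.7% of all loci passed, 20.9% in the upward direction. The difference was 1.75 ± 0.54 over 1 to 6 h (adjusted p = 0.0266), 1.59 ± 0.48 over 8 to 16 h (adjusted p = 0.0126) and 3.95 ± 0.52, or 15.4-fold, over 20 to 48 h (adjusted p = 7.46e-10). In these windows 8.33%, 16.6% and 14.7% of all loci passed. The last window held under every alternative tried. The first did not pass without replicate 1 (0.68, adjusted p = 0.616) or replicate 3 (1.79, adjusted p = 0.128), and the middle one did not pass without replicate 1 (1.37, adjusted p = 0.263). Neither passed with the arrays' heat shock means as covariate (1.45, adjusted p = 0.149, and 1.23, adjusted p = 0.222) or with the brighter row alone (1.66, adjusted p = 0.0954, and 1.44, adjusted p = 0.0792).

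The separation was not present at the start. At 1 h the cortex nitrogen arrays read 11.04, 9.04 and 9.38 against 8.51, 8.37 and 10.16 on standard, and at 2 h 13.01 and 9.89 against 10.63, 11.78 and 11.54. Both sets of arrays overlapped at these hours. By 4 h the nitrogen arrays read 12.44 and 11.91 and the standard arrays 9.76, 10.39 and 10.25, with no overlap.

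At 6 h the values were 12.83 and 11.94 on nitrogen and 7.13, 11.19 and 6.79 on standard. At 24 h they were 11.27, 11.05 and 12.43 against 8.27, 9.61 and 6.27. At 48 h they were 11.59, 11.22 and 11.97 against 6.76, 7.04 and 5.94. All nitrogen arrays lay above all standard arrays at 9 of 13 hours (4, 6, 8, 12, 14, 20, 24, 36 and 48 h), against a background of 17.9% over all loci and hours. Single hours rest on 2 or 3 arrays per arm. At 48 h, the hour with the largest difference, it was 5.01 (adjusted p = 0.000355), and 4.50 without replicate 3, which did not pass (adjusted p = 0.103), at an hour when 2.06% of loci passed.

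The widening ran with a fall of the standard arm. From 1–6 h to 20–48 h the cortex standard mean fell by 2.19 ± 0.51 on the log2 scale, whereas the nitrogen mean moved by 0.00 ± 0.55. Under low nitrate the cortex level was higher at 2 h than at 0 h by 4.11 ± 0.99 and ended 0.63 ± 0.99 below it at 48 h. Over all 13 hours the cortex standard course differed from 0 h (moderated F = 3.97, adjusted p = 0.000839, where 5.88% of loci passed), but not without replicate 1 (F = 2.45, adjusted p = 0.123) or replicate 3 (F = 2.27, adjusted p = 0.247). In pericycle the course passed narrowly (F = 2.39, adjusted p = 0.0478, where 12.4% of loci passed). It did not pass without replicate 1 (F = 1.42, adjusted p = 0.447), replicate 3 (F = 1.34, adjusted p = 0.543) or replicate 5 (F = 2.35, adjusted p = 0.0691). The pericycle course also uses the pericycle standard arrays that entered the choice of the locus, so its p-value is not independent of that choice.

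Cortex standard arrays also carried high heat shock transcripts. All 10 listed heat shock genes were lower on cortex nitrogen than on cortex standard arrays (median -3.75), where 14.8% of all loci were lower. They were also lower on cortex rhizobium than on cortex standard arrays (median -4.06), where 16% of all loci were lower. Their mean level ran from 9.13 to 14.13 on cortex standard, from 8.05 to 11.30 on cortex nitrogen and from 7.62 to 11.28 on cortex rhizobium. The 3 cortex standard arrays with the lowest heat shock means, at 14 h (replicate 2), 4 h (replicate 1) and 2 h (replicate 2), gave AT5G62720 levels of 9.42, 9.76 and 11.78. Among cortex standard arrays of the same hour these levels were the lowest at 14 and 4 h and the highest at 2 h. For AT3G47980 the same arrays read 12.89, 13.21 and 13.87, each the highest cortex standard array of its hour. Between cortex nitrogen and cortex rhizobium arrays, a comparison that leaves the standard arrays out, these 10 genes differed by -0.52 to 0.78 (median 0.34) and none passed in limma.

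Against rhizobium arrays, AT5G62720 was 9.81-fold higher on cortex nitrogen arrays (3.29 ± 0.29, adjusted p = 5.76e-18), the 4th highest difference of all loci, where 14.8% of loci passed. The difference was 1.95 ± 0.55 over 1 to 6 h (adjusted p = 0.0309), 3.37 ± 0.47 over 8 to 16 h (adjusted p = 3.28e-08) and 4.55 ± 0.51, or 23.4-fold, over 20 to 48 h (adjusted p = 3.1e-12), windows in which 3.66%, 6.2% and 6.79% of loci passed. The earliest window did not pass without replicate 1 (0.69, adjusted p = 0.628) or replicate 3 (2.23, adjusted p = 0.073), nor with the brighter row alone (1.81, adjusted p = 0.0892). At 48 h the rhizobium arrays read 6.84, 7.70 and 6.83. Nitrogen arrays lay above all rhizobium arrays at 11 of 13 hours, against 12.9% over all loci and hours, and 1 and 2 h were the hours with overlap.

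The pericycle nitrogen contrast led to the choice of AT5G62720, so its values there are a description with no test. The mean was 11.47 on nitrogen and 7.57 on standard, a difference of 3.90 ± 0.28, and 19.6% of all loci passed in this contrast. It was 3.66 over 1 to 6 h, 3.03 over 8 to 16 h and 5.22 over 20 to 48 h. At 4 h the nitrogen arrays read 11.80, 11.70 and 12.61 and the standard arrays 6.68, 7.42 and 7.10. At 48 h they read 11.32, 11.07 and 12.30 against 6.297, 5.917 and 5.965.

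All pericycle nitrogen arrays stood above all standard arrays at 10 of 13 hours (background 7.78%). These arrays led to the choice of the locus, so this count describes the choice and is no support for it. The exceptions were 1 h, 2 h and 14 h. At 14 h the nitrogen arrays were 11.84, 7.73, 8.47 and 12.56 and the standard arrays 10.70, 7.298 and 9.86. With 4 nitrogen arrays 2 high and 2 low, this hour had a mean of 10.15, the lowest of the pericycle nitrogen course. No locus had a higher pericycle nitrogen difference than AT5G62720, which is how it came to be chosen.

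With S. meliloti, AT5G62720 was lower than on standard in cortex and higher in pericycle. In cortex the difference was -0.93 ± 0.28 (adjusted p = 0.00505, where 37.8% of loci passed and 16% were lower), a 1.91-fold fall. Of the windows only 8 to 16 h passed (-1.79 ± 0.45, adjusted p = 0.00148). The difference was -0.20 ± 0.51 over 1 to 6 h (adjusted p = 0.882) and -0.60 ± 0.51 over 20 to 48 h (adjusted p = 0.472). Whether the windows differ was not tested. Outside 8 to 16 h, rhizobium means were also lower at 2 h (9.88 against 11.32), 20 h (7.07 against 8.88) and 24 h (6.57 against 8.05). They were higher at 6 h (9.15 against 8.37), 36 h (6.89 against 6.55) and 48 h (7.13 against 6.58). Of all loci 21.9% passed over 8 to 16 h, 6.33% over 1 to 6 h and 14.2% over 20 to 48 h. The fall over 13 hours did not pass without replicate 2 (-0.70, adjusted p = 0.0905), nor with the arrays' heat shock means as covariate (-1.34, adjusted p = 0.0594). It also did not pass with the dimmer of the 2 rows in place of their average (-0.55, adjusted p = 0.0906), which also ended the call over 8 to 16 h (-1.01, adjusted p = 0.0766).

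At 14 h the cortex rhizobium arrays read 7.41, 8.14 and 7.53 and the standard arrays 10.56 and 9.42. At 8 h the rhizobium arrays were far apart, at 11.46, 5.89 and 8.84, against 10.89, 10.38 and 10.28 on standard. Rhizobium arrays lay below all standard arrays at 5 of 13 hours (2, 10, 12, 14 and 20 h), against a background of 10.5%. All 10 green tissue genes were also lower on cortex rhizobium than on cortex standard arrays (median -1.70), and their mean level ran from 5.90 to 11.25 on the former and from 5.93 to 13.20 on the latter. Their part in the result was not tested.

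In pericycle AT5G62720 was 2.53-fold higher with rhizobium than on standard arrays (1.34 ± 0.28, adjusted p = 0.000167, the 62nd highest difference, where 21.9% of loci passed and 13% were higher). This comparison shares its standard arrays with the contrast that led to the choice of the locus. Of the windows only 1 to 6 h passed, at 3.01 ± 0.47 or 8.06-fold (adjusted p = 9.52e-07). The difference was 0.28 ± 0.46 over 8 to 16 h (adjusted p = 0.911) and 0.99 ± 0.52 over 20 to 48 h (adjusted p = 0.386). Loci in general also passed mostly in the first window: 23.2% over 1 to 6 h, 0.0921% over 8 to 16 h and 0.173% over 20 to 48 h.

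At 2 h the pericycle rhizobium arrays read 12.17, 11.87, 12.65 and 11.52, close together, and the standard arrays 10.77, 6.47 and 8.15. At 4 h they read 10.30, 6.91, 12.75 and 10.20 against 6.68, 7.42 and 7.10, so 1 rhizobium array lay among the standard arrays. At 6 h they read 12.58, 11.17 and 9.70 against 6.17, 7.09 and 8.20. Complete separation occurred at 2 of 13 hours (2 and 6 h), against a background of 8.67%. By 48 h the rhizobium arrays were at 5.71, 7.32 and 8.06. From 1–6 h to 20–48 h the pericycle rhizobium mean fell by 3.45 ± 0.48 on the log2 scale.

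The 2 rhizobium responses differed between the fractions by 2.27 ± 0.40 (pericycle minus cortex, adjusted p = 1.6e-06), where 33.4% of all loci passed. This test subtracts the pericycle standard arrays that entered the choice of the locus, so its p-value is not independent of that choice. In this same test of the difference all 10 heat shock genes (median 3.83) and all 10 green tissue genes (median 2.67) also passed in the same direction. In epidermis or root hair, 5 of 8 markers were higher on pericycle rhizobium than on pericycle standard arrays, where 13% of all loci were higher. The list means ran from 6.45 to 10.35 on the former and from 6.07 to 9.11 on the latter. The part of these transcripts in the AT5G62720 result was not tested.

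**Figure D2:**
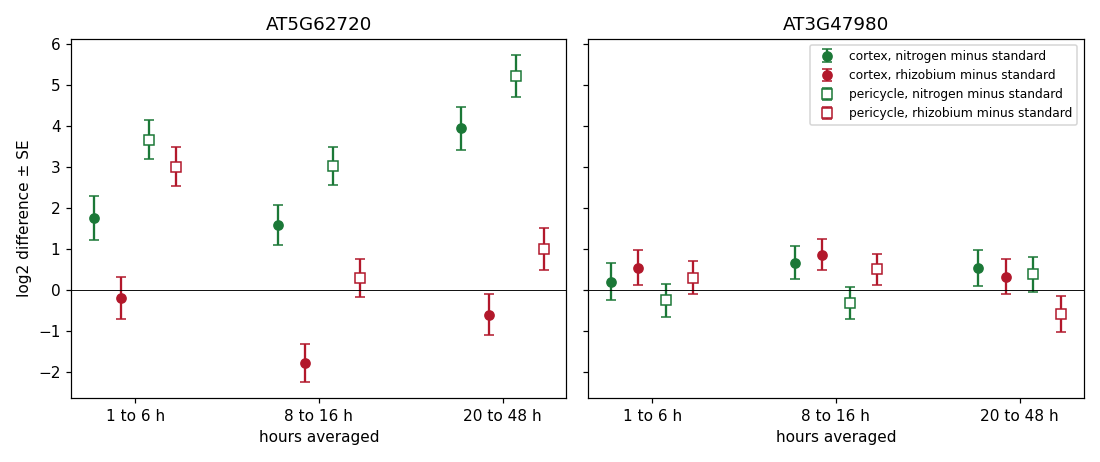
Mean same-hour log2 difference from standard (± SE) of AT5G62720 (left) and AT3G47980 (right) in 3 windows of hours; filled circles are cortex, open squares pericycle, green nitrogen and red rhizobium. AT5G62720 reaches 3.95 in cortex and 5.22 in pericycle on nitrogen at 20 to 48 h and 3.01 with rhizobium in pericycle at 1 to 6 h, while every AT3G47980 value lies between -1 and 1.

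Between the fractions, the order for AT5G62720 depended on the treatment. On 0 h and standard arrays pericycle was lower than cortex by 2.32-fold (-1.21 ± 0.27, adjusted p = 0.000111), as were 18.4% of loci. The difference was -1.85 ± 0.49 over 1 to 6 h (adjusted p = 0.00554), -1.40 over 8 to 16 h (adjusted p = 0.0206) and -1.09 over 20 to 48 h (adjusted p = 0.162), while 10.1%, 19.5% and 13% of loci passed. Before the transfer it had the other sign and did not pass (1.80 ± 0.88, adjusted p = 0.17, where 11% of loci passed). These arrays include the pericycle standard ones used in choosing the locus, and all 10 heat shock genes were lower in pericycle in the same comparison.

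On rhizobium arrays pericycle was higher than cortex by 0.83 ± 0.28 (adjusted p = 0.00818, where 53.2% of loci passed). That difference did not pass without replicate 1 (0.71, adjusted p = 0.11). On nitrogen arrays, described without a test, the means were 11.47 in pericycle and 11.38 in cortex, 0.09 ± 0.29 apart. On standard arrays the 2 earlier windows also lost their call when replicates were left out. The 1 to 6 h window did not pass without replicate 2 (-1.10, adjusted p = 0.277). The 8 to 16 h window did not pass without replicate 1 (-1.14, adjusted p = 0.321) or replicate 3 (-1.20, adjusted p = 0.157). The latter window also did not pass with the dimmer row alone (-0.80, adjusted p = 0.203).

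The 2 rows of AT5G62720 followed each other, with a Pearson correlation of 0.88 over the 235 arrays, as a description of arrays that share their groups. The first row covered the wider range. It stood above the second by 0.91 on cortex nitrogen, 0.90 on pericycle nitrogen and 0.70 on cortex standard arrays. The difference was -0.15 on pericycle standard, -0.06 on cortex rhizobium and -0.23 on pericycle rhizobium arrays. Before the transfer it was -0.57 in cortex and -0.49 in pericycle. The size of each response thus moved with the row used, and its direction over 13 hours did not.

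The medians of AT3G47980 in the arms after the transfer lay between 11.58 and 12.47, with wide ranges within arms. Its median was 12.28 on cortex nitrogen arrays (10.85 to 13.95), 12.13 on cortex standard (9.83 to 13.87) and 12.47 on cortex rhizobium (11.22 to 13.94). In pericycle the median was 11.58 on nitrogen (7.03 to 13.81), 11.94 on standard (6.61 to 13.62) and 12.12 on rhizobium (7.48 to 14.01). Before the transfer the cortex arrays read 11.29, 11.89 and 12.36 and the pericycle arrays 10.18, 8.46, 13.32, 13.35 and 14.35. Ordered by mean, the 8 arms ran from 12.39 in cortex rhizobium to 11.53 in pericycle nitrogen, and no neighbouring pair differed by more than its pooled standard deviation.

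**Figure D3:**
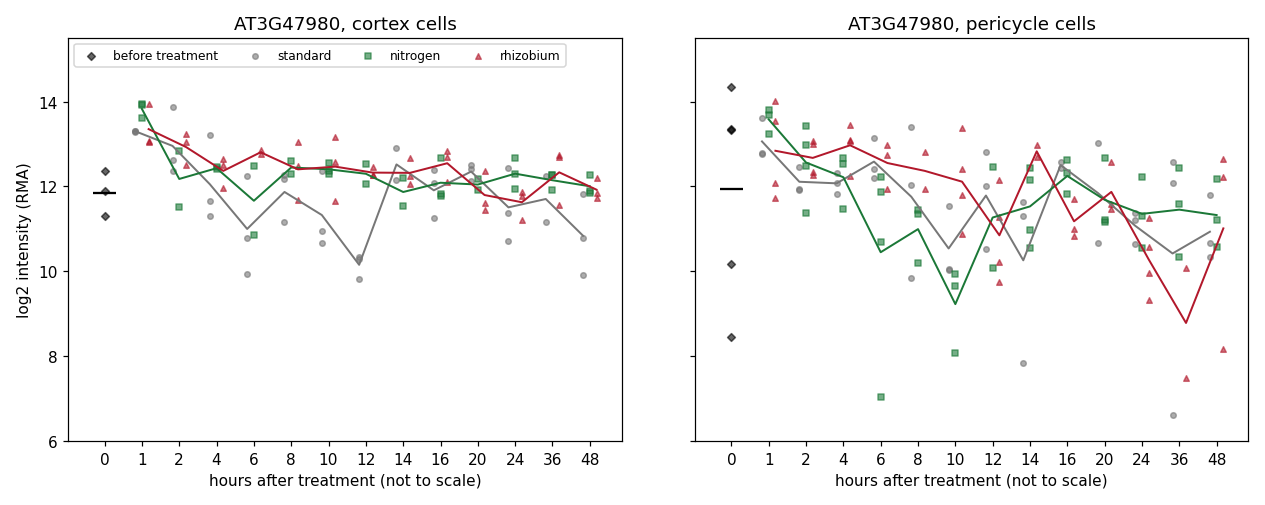
AT3G47980 level (log2 intensity) on every array against hours after treatment (ordered, not to scale) in cortex (left) and pericycle (right); points are arrays, lines join group means and the black bar is the mean before treatment. The 3 arms lie on each other at most hours, the highest cortex group means come at 1 h, and the pericycle arrays scatter down to 6.61.

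In cortex the highest group mean of AT3G47980 in each arm came at 1 h. At 1 h the cortex arrays read 13.29, 13.30 and 13.30 on standard, 13.62, 13.95 and 13.91 on nitrogen and 13.94, 13.04 and 13.07 with rhizobium. At 12 h the cortex standard arrays were low, at 10.34, 10.29 and 9.83, while the nitrogen arrays read 12.53 and 12.06 and the rhizobium arrays 12.26, 12.27 and 12.45. In pericycle the lowest group means fell at 10 h on nitrogen (9.95, 9.65 and 8.08) and at 36 h with rhizobium (7.48 and 10.08). From 1–6 h to 20–48 h the pericycle array means went from 12.77 to 10.61 with rhizobium and from 12.46 to 10.99 on standard. On pericycle nitrogen they went from 12.10 to 11.45. Cortex array means went from 12.87 to 11.92 with rhizobium, 12.32 to 11.59 on standard and 12.67 to 12.13 on nitrogen. These changes between windows were not tested. The standard course did not pass against 0 h in cortex (F = 1.99, adjusted p = 0.209) or in pericycle (F = 2.11, adjusted p = 0.0913).

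For AT3G47980 the cortex nitrogen difference from standard was 0.48 ± 0.25 and did not pass (adjusted p = 0.126). With each cell type fitted alone the same 0.48 passed (adjusted p = 0.00412), and with the heat shock mean as a covariate the value was -0.77 (adjusted p = 0.169). Cortex rhizobium arrays were higher than standard by 0.59 ± 0.24 (adjusted p = 0.0375), which did not pass without replicate 1 (0.61, adjusted p = 0.104), replicate 2 (0.76, adjusted p = 0.0504) or replicate 3 (0.41, adjusted p = 0.34). With the heat shock covariate that value was -0.76 (adjusted p = 0.204). Nitrogen and rhizobium arrays of cortex were 0.12 ± 0.25 apart, with nitrogen lower (-0.12, adjusted p = 0.804).

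In pericycle AT3G47980 was 0.11 ± 0.23 higher with rhizobium than on standard (adjusted p = 0.786), and its nitrogen difference, described without a test, was -0.08 ± 0.23. The difference between pericycle and cortex did not pass on 0 h and standard arrays (-0.18 ± 0.23, adjusted p = 0.572). On rhizobium arrays pericycle was lower by 0.68 (-0.68 ± 0.23, adjusted p = 0.00947), and over 20 to 48 h the difference was -1.43 (adjusted p = 0.0131, where 13.6% of loci passed). Neither held throughout: over 13 hours it did not pass without replicate 1 (-0.54, adjusted p = 0.108) or replicate 3 (-0.55, adjusted p = 0.134), and the late window did not pass without replicate 1 (-0.70, adjusted p = 0.421) or replicate 3 (-1.51, adjusted p = 0.0978). The rhizobium responses of the fractions differed by -0.49 ± 0.33 (adjusted p = 0.26).

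The 2 loci were then compared in their responses, each first set against itself. The cortex nitrogen response of AT5G62720 exceeded that of AT3G47980 by 1.88, in the same direction at 13 of 13 hours (two-sided permutation test within hours, 100000 resamples, p = 1e-05, the smallest these can give, adjusted p = 1.5e-05 over 3 tests). In the cortex rhizobium response AT5G62720 lay below AT3G47980 by 1.53 (difference -1.53), again at 13 of 13 hours (permutation p = 1e-05, adjusted p = 1.5e-05). The pericycle rhizobium response of AT5G62720 was the larger by 1.23, at 10 of 13 hours (permutation p = 0.00425, adjusted p = 0.00425), but that response is measured from the pericycle standard arrays that entered the choice of the locus. Across the 235 arrays the levels of both loci correlated at 0.21, as a description.

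The genes of the enzymes on either side of the nitrite step differed from standard by at most 0.44 in either direction. The nitrate reductase genes NIA1 and NIA2 and the nitrite reductase gene NIR1 had a list mean between 13.004 and 14.744 over cortex standard, nitrogen and rhizobium arrays, close to the top of the measured range, and whether these probes were near saturation was not tested. In cortex NIR1 rose on nitrogen by 0.38 ± 0.11 (adjusted p = 0.00335), while NIA1 (0.04) and NIA2 (0.14) did not pass. In pericycle NIA1 rose by 0.30 ± 0.08 (adjusted p = 0.00362) and NIR1 by 0.30 ± 0.10 (adjusted p = 0.0256). With rhizobium in cortex NIA1 fell (-0.44 ± 0.08, adjusted p = 4.78e-06), as did NIR1 (-0.30 ± 0.11, adjusted p = 0.0159), and none of the 3 passed in pericycle. Between nitrogen and rhizobium arrays NIR1 was higher on nitrogen by 0.69 ± 0.11 in cortex and 0.55 ± 0.10 in pericycle. NIA1 was higher by 0.48 and 0.29, and NIA2 differed by 0.26 in cortex and -0.0048 in pericycle.

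Most genes listed for the supply of electrons and siroheme to nitrite reductase were higher on nitrogen. In cortex 7 of 10 passed as higher and 0 lower (median 0.46, against 0.08 over all loci), and in pericycle 6 of 10 were higher and 0 lower (median 0.53, against 0.04). Over all loci 20.9% were higher and 14.8% lower on cortex nitrogen arrays, and 8.52% and 11.1% on pericycle nitrogen arrays. RFNR2, a root ferredoxin-NADP reductase, rose by 1.29 ± 0.16 in cortex and 1.14 ± 0.15 in pericycle. G6PD3, a plastid glucose-6-phosphate dehydrogenase, rose by 0.84 ± 0.14 and 1.34 ± 0.14, and UPM1, which methylates the siroheme precursor, by 0.56 ± 0.10 and 0.39 ± 0.09. With rhizobium G6PD3 fell in cortex (-0.42 ± 0.14, adjusted p = 0.0107) and rose in pericycle (0.44 ± 0.14, adjusted p = 0.0119), the directions also seen for AT5G62720. How many loci share these directions was not counted.

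Of 19 nitrate regulators 10 were higher and 2 lower on cortex nitrogen arrays (median 0.43), and 9 were higher and 1 lower in pericycle (median 0.28), beside 20.9% and 8.52% of all loci higher. The repressor gene LBD39 rose by 2.85 ± 0.20 in cortex and 1.39 ± 0.19 in pericycle, and BT2 by 2.27 ± 0.24 and 1.34 ± 0.23. HRS1, a nitrate-induced repressor, rose by 0.95 ± 0.22 and 1.85 ± 0.21. With rhizobium 6 were higher and 4 lower in cortex, where 21.8% of all loci were higher and 16% lower, and 1 was higher (BT1, 0.70 ± 0.26) and 0 lower in pericycle, where 13% were higher and 8.84% lower. LBD39 rose with rhizobium in cortex (0.89 ± 0.19, adjusted p = 7.44e-05), where AT5G62720 fell.

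**Figure D4:**
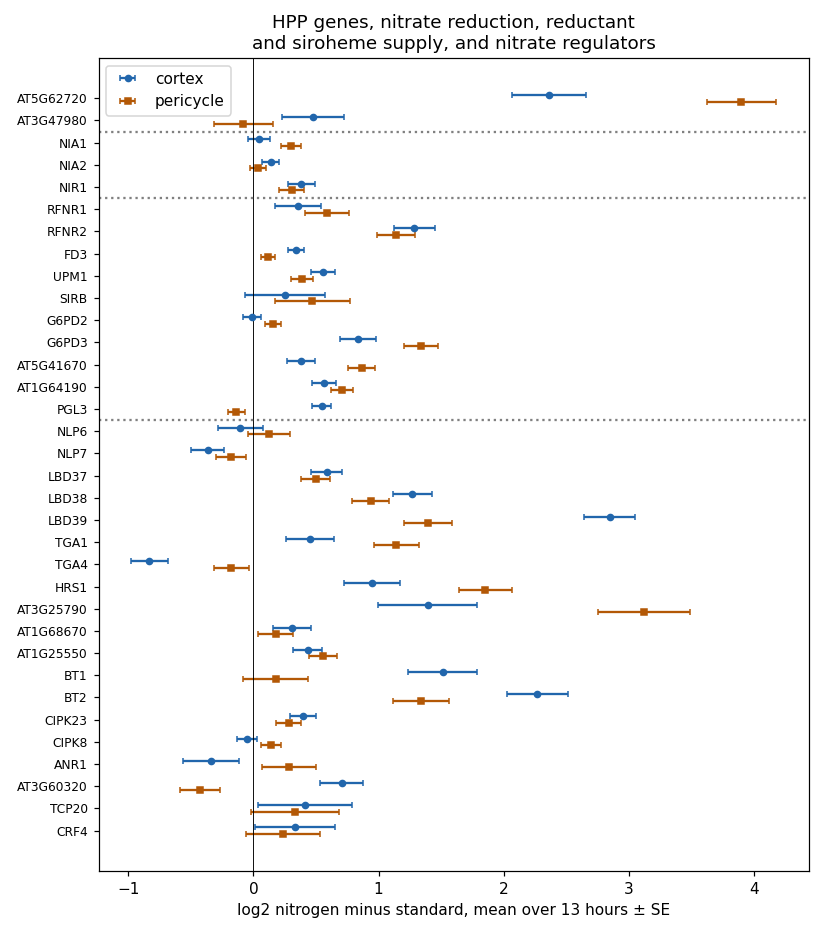
Log2 difference, nitrogen minus standard, averaged over 13 hours (± SE) for the HPP loci, 3 nitrate reduction genes, 10 genes of reductant and siroheme supply and 19 nitrate regulators, separated by dotted lines; blue circles are cortex and orange squares pericycle. AT5G62720 lies at 2.36 and 3.90, AT3G47980 at 0.48 and -0.08, and the nitrate reduction genes between 0.03 and 0.38.

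Transport and ammonium assimilation genes passed in both directions. Of 16 nitrate and nitrite transport genes 4 were higher and 2 lower on cortex nitrogen arrays, and 1 was higher and 6 lower in pericycle. The cortex counts are near the shares over all loci (20.9% higher and 14.8% lower), while in pericycle 8.52% of loci were higher and 11.1% lower. CLCA, which loads nitrate into the vacuole, rose in both (1.12 ± 0.19 and 0.85 ± 0.18), and NRT3.1, the partner of the high-affinity NRT2 transporters, fell in both (-1.30 ± 0.38 and -1.70 ± 0.35). Of 12 ammonium assimilation genes 2 were higher and 3 lower in cortex, where 35.7% of all loci passed, and 3 higher and 4 lower in pericycle, where 19.6% passed. The glutamine synthetase gene GLN1;4 fell in cortex (-1.45 ± 0.14) and in pericycle (-2.07 ± 0.14), and plastid GLN2 rose by 0.31 ± 0.11 and 0.63 ± 0.11.

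With rhizobium 4 transport genes were higher and 1 lower in cortex, and 2 were higher and 0 lower in pericycle, close to the shares over all loci (37.8% passing in cortex and 13% higher in pericycle). In cortex these included NRT2.1, a high-affinity nitrate transporter (1.12 ± 0.25), and NPF6.3, the dual-affinity transporter and sensor, was the one that fell (-1.0044 ± 0.20). Of the ammonium assimilation genes 2 were higher and 4 lower in cortex, and 1 was higher in pericycle. That gene, GLN1;2, rose in pericycle (0.87 ± 0.19) and fell in cortex (-0.72 ± 0.19), again the directions of AT5G62720. Over the group means its pattern was only the 2324th most like that locus (r = 0.28), and how many loci share these directions was not counted.

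Over the 80 group means, the loci whose pattern was most like AT5G62720 were HB1, a nonsymbiotic haemoglobin gene (r = 0.82), MDAR6, a monodehydroascorbate reductase gene (r = 0.82), AT5G19970 (r = 0.82), AT1G68238 (r = 0.81) and AT3G58610 (r = 0.78). AT1G68238 averaged 11.09 on cortex nitrogen and 10.06 on pericycle nitrogen arrays, against 6.58 and 6.53 on standard. HB1 averaged 12.98 and 12.85 on nitrogen against 10.06 and 10.00 on standard. Among the listed genes G6PD3 came 6th of 27142 other loci (r = 0.78) and LBD39 7th (r = 0.74), and AT3G47980 came 3992nd (r = 0.22). These correlations are descriptions, since the group means include the pericycle nitrogen groups that led to the choice of AT5G62720.

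For AT3G47980 the likeness was weaker. Its closest loci were AT1G03230 (r = 0.65), NUDX23, a Nudix hydrolase gene (r = 0.63), NOI (r = 0.62), AT1G01800 (r = 0.62) and GAE6, a UDP-glucuronate epimerase gene (r = 0.61). Each of these 5 varied by less than 1 between the means of the 8 arms. Of the listed genes LBD37 came 15th (r = 0.58) and PGL3, a 6-phosphogluconolactonase gene, 18th (r = 0.57).

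The nearest genes along the chromosome did not share the nitrogen response of AT5G62720 in size. For the 3 annotated loci on each side of AT5G62720, among them TUB2, TUB3 and HIR1, the nitrogen differences lay between -0.21 and 0.44 in both fractions. For those beside AT3G47980, which include HA4, GTR1, SIS3, ALDH2B4 and CNGC16, they lay between -0.58 and 0.42, and AT3G47980 itself had no larger difference in size.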

How the data were processed

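The authors deposited log2 intensities normalised by RMA, per the submitters' processing notes, for a custom single-colour array, with 31524 rows whose names are locus codes. The genome build behind the probes and the slide or scan of each array are not stated in those sources, and background was not recomputed. Rows were averaged to 27143 loci, of which 3675 had several rows. Limma 3.58.1 in R 4.3.3 fitted 1 mean per group over 235 arrays (155 residual degrees of freedom), and contrasts averaged same-hour differences with equal weight. P-values were adjusted by Benjamini and Hochberg over all loci, with a threshold of 0.05. The number of arrays limits the precision. Responses of the 2 loci were compared by permutation with SciPy 1.17.1. The fit was tested on simulated data. Names came from RefSeq's TAIR10.1 table, which held 26555 of the loci.

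The loci and gene lists were chosen with earlier results of these data known. Text was limited to both loci, the 5 most correlated loci of each, the listed genes and 3 neighbours on each side. Contrasts that led to the choice, and others built on pericycle nitrogen arrays, carry no test for either locus. Alternatives covered normalisation, filtering, rows, the averaged arrays, a heat shock covariate, the variance prior, separate fits, a replicate block and leaving out replicates. Leaving out a replicate removes every array with that number, so these fits rest on fewer arrays. Whether a lost call came from particular arrays or from their smaller number was not tested. Same-numbered arrays of a fraction did not deviate together (median correlation -0.0002 over 99 pairs in cortex and 0.0054 over 106 in pericycle), so numbers were not used as pairs.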

Additional observations from a re-analysis of the deposited data

Results flagged for a closer look

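AT5G62720 on pericycle rhizobium arrays at 24 h had a single high array, at 10.779 against 6.50, 6.56 and 6.50 on the other 3. Of 20 groups of 4 or more arrays checked over both loci this was 1, and the rule behind it picks about 1 in 20 groups by chance. The rhizobium response of AT5G62720 differed between the fractions, by 2.2725 on the log2 scale (pericycle minus cortex), in a test of the difference itself that includes the pericycle standard arrays used in choosing the locus.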

How the results depend on the processing

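For AT5G62720 the cortex nitrogen difference from standard (1.95 to 2.88 over the alternatives) and from rhizobium (2.81 to 3.78), the pericycle rhizobium rise (1.26 to 1.49), the fraction difference on 0 h and standard arrays (-1.62 to -0.81) and the difference of rhizobium responses (1.90 to 2.65) kept direction and call under every alternative, as did the 3 comparisons between the loci under the 10 alternatives run for them. The rhizobium rise, the fraction difference and the difference of rhizobium responses use the pericycle standard arrays that entered the choice of the locus. So does the pericycle comparison between the loci. Every alternative draws on these arrays, so a kept call there is not independent of that choice. With a replicate block the cortex nitrogen value was 2.37. Changes in other results follow, and their cause was not tested. Leaving out replicates took AT5G62720 to between -1.12 and -0.70 (cortex rhizobium), 0.71 and 0.96 (pericycle against cortex, rhizobium), F of 2.27 and 4.21 (cortex standard course) and F of 1.34 and 3.61 (pericycle standard course). It took AT3G47980 to between 0.41 and 0.76 (cortex rhizobium), -0.11 and 0.28 (pericycle rhizobium) and -0.95 and -0.54 (pericycle against cortex, rhizobium). The cortex rhizobium fall of AT5G62720 was lost with the heat shock covariate (-1.34) and the dimmer row, an alternative chosen after seeing the data (-0.55). Its pericycle course was lost in separate fits (F = 1.99), without the 0.25 of loci with the lowest means (2.39), the replicate block (2.23), the brighter row (2.01) or the dimmer row (2.31). Of its windows, cortex nitrogen was lost with the covariate (1.45 at 1 to 6 h, 1.23 at 8 to 16 h) and the brighter row (1.66 and 1.44), nitrogen against rhizobium at 1 to 6 h with the brighter row (1.81), cortex rhizobium at 8 to 16 h with the dimmer row (-1.01), and the fractions on standard arrays at 8 to 16 h with the dimmer row (-0.80) and the replicate block (-1.32, adjusted p = 0.0536).

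With the heat shock covariate, which itself differs between cortex arms, AT3G47980 changed sign in cortex nitrogen (-0.77; windows -0.81, -0.54 and -1.01), cortex rhizobium (-0.76; windows -0.44, -0.54 and -1.34), pericycle rhizobium (-0.018) and the difference of rhizobium responses (0.74). It then passed between fractions on 0 h and standard arrays (-1.32) and in the pericycle course (F = 2.73). In separate fits it passed in cortex nitrogen (0.48; at 8 to 16 h 0.67), in cortex rhizobium at 8 to 16 h (0.86) and in the cortex course (F = 6.20).

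Leaving out replicates also changed signs that had not passed. AT5G62720 ran from -0.0505 to 0.67 at 8 to 16 h (pericycle rhizobium), and AT3G47980 at 20 to 48 h from -0.0034 to 0.78 (cortex rhizobium) and -1.30 to 0.20 (pericycle rhizobium).

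Counts of loci passing moved more. Leaving out replicates gave 5892 to 10697 between fractions on 0 h and standard arrays, 6411 to 9819 for cortex nitrogen, 6788 to 10362 for cortex rhizobium, 1774 to 4130 for nitrogen against rhizobium in cortex, 1759 to 5681 for pericycle nitrogen, 1200 to 5957 for pericycle rhizobium, 4745 to 9075 for the difference of rhizobium responses, and 526 to 1651 and 665 to 3206 for the cortex and pericycle standard courses. With the heat shock covariate they were 5957 between fractions, 3953 for cortex nitrogen, 3245 for cortex rhizobium and 5374 for the difference of rhizobium responses. Separate fits gave 6316 for nitrogen against rhizobium in cortex, and 3385 and 796 for the cortex and pericycle courses. Without those dim loci, 3762 passed for pericycle rhizobium and 2015 in the pericycle course. Signal over background could not be set against these levels.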
